A study of Rattus norvegicus with 16 samples.

Results

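The myeloid class of the rat intervertebral disc was examined in 8 single-cell RNA libraries taken 2 weeks after surgery. Its members were the cells that the study's own class column names as macrophages in these libraries, the class its methods call myeloid, and they numbered 1153 of 93925 cells (1.23%). Male Sprague-Dawley rats, 8 weeks old and with no genetic change given, had a needle puncture of the L4-5 and L5-6 discs. The punctured discs of a rat were pooled as the lumbar disc puncture sample (LDP), and the unpunctured L2-3 and L3-4 discs of the same rat were pooled as the control (CON), so the controls also came from operated animals. Rats 1 to 4 gave 4 CON and 4 LDP libraries, numbered as in the labels, and a shared number was taken to mean the same rat, which the sources used here do not spell out. Of the myeloid cells, 429 were CON and 724 LDP. Whole discs were digested after trimming of muscle and ligament, and the methods describe no cell sort.

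Myeloid cells include macrophages, which reside in tissue and clear debris, monocytes, which arrive from blood and can become macrophages, and granulocytes such as neutrophils, which mature in bone marrow. A healthy disc has few vessels and few such cells. Macrophages are known by complement C1q and the receptor for colony-stimulating factor, Csf1r. Neutrophils are known by the calprotectin genes S100a8 and S100a9 and by granule proteins that are made in a fixed order as the cell matures in the marrow.

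The class was found in every library, at very different sizes. CON libraries held 259, 62, 83 and 25 myeloid cells in rats 1 to 4, and LDP libraries 32, 111, 369 and 212. As shares of all cells these were 2.20, 1.59, 0.616 and 0.187% in CON and 0.367, 0.697, 2.50 and 1.77% in LDP. The exact 95% binomial interval, which covers counting error alone, was 0.121 to 0.275% for CON 4, the lowest, and 2.25 to 2.76% for LDP 3, the highest. The ranges of CON and LDP overlapped throughout. The mean share was 1.15 ± 0.914% in CON and 1.33 ± 0.981% in LDP (SD, n = 4), higher in LDP in 2 of 4 rats (two-sided exact permutation test over 70 splits, p = 0.714, where the smallest possible p is 0.0286). Without rat 3 the difference changed sign, from 0.186 to -0.380 percentage points, and without rat 4 it was -0.280.

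Lyz2, Cd68, Cd14 and Mrc1, the markers of the class, were checked first. Lyz2, which encodes the lysozyme of phagocytes, averaged 3512, 9455, 5744 and 4085 counts per 1000000 (CPM, the mean over the cells of the class) in CON 1 to 4 and 5202, 7737, 5264 and 7275 CPM in LDP 1 to 4. Other cells of the same libraries averaged 6.39 CPM, and Lyz2 ranked first of the genes at 100 CPM or more by the median over libraries of the log2 ratio of CPM + 10. For Cd68, a lysosomal membrane protein of macrophages, the class averaged 236 CPM and the other cells 3.13 CPM. For the mannose receptor Mrc1 these levels were 213 and 0.570 CPM. Cd14, the co-receptor for bacterial lipopolysaccharide, was the least particular, at 376 CPM in the class and 41.2 CPM outside it. All 4 markers were higher in the class than outside it in 8 of 8 libraries, which describes how the class was named and is no test.

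Among 1487 genes at 100 CPM or more in the class, 195 (13.1%) were at least 2-fold higher than in the other cells in every library, on the scale of CPM + 10. After Lyz2 the leading genes were those of antigen presentation to helper T cells. Cd74, the invariant chain of MHC class II, averaged 6303 CPM, and the class II chains RT1-Db1, RT1-Da and RT1-Ba averaged 3863, 3223 and 1356 CPM. The next group was the signalling adaptors of immune receptors, Tyrobp at 1727 CPM and Fcer1g at 944 CPM. Complement C1qa, C1qb and C1qc, secreted mainly by macrophages, averaged 1213, 1059 and 831 CPM in the class and under 1 CPM outside it. The remaining genes of the 20 were Bcl2a1 (a survival factor), Cybb (the oxidase subunit that makes superoxide), Laptm5, the neutrophil attractant Cxcl2, Alox5ap (leukotriene synthesis), Spi1, Ptprc (CD45, carried by all white blood cells), Lcp1, RGD1559482 and LOC498276. Cd74 had the widest range of these 20 between libraries, with a log2 ratio to the other cells of 3.57 in the library where it was lowest and 9.65 where it was highest.

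Spi1 encodes PU.1, the factor that specifies the myeloid lineage, and it averaged 417 CPM in the class against 3.30 CPM outside it. RefSeq promoters (build GRCr8, 250 bases before to 50 after the gene's start) were given for 12 of the 20 leading genes. The letters GAGGAA, a PU.1 site core that holds the GGAA common to all ETS factors, stood on either strand of 8 of these 12 promoters (66.7%), and of 27.5% of all 27457 promoters. The letters TTGCNNAA, a C/EBP site, also searched on both strands, stood in 2 of the 12 (16.7%) and in 10.5% of all promoters. For the 20 genes that lead the neutrophil and granulocyte precursor clusters described next, 13 promoters were given. Each motif stood in 5 of these 13 (38.5%). These matches describe letters and not binding. The promoters of Lyz2, which leads the whole class, and of the neutrophil collagenase Mmp8 are shown with those letters, or their reverse complement where the match is on the other strand, in capitals, the former with a match to each motif and the latter with 2 to the C/EBP site. Lyz2 lies at chr7:54797962-54798261 on the minus strand and Mmp8 at chr8:13008640-13008939 on the plus strand of GRCr8, each given 5′ to 3′.
Lyz2: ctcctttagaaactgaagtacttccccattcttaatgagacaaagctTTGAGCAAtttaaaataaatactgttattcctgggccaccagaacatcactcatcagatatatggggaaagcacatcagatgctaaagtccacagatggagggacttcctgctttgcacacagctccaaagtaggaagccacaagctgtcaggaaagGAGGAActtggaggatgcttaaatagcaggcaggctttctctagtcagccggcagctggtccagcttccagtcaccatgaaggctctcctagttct
Mmp8: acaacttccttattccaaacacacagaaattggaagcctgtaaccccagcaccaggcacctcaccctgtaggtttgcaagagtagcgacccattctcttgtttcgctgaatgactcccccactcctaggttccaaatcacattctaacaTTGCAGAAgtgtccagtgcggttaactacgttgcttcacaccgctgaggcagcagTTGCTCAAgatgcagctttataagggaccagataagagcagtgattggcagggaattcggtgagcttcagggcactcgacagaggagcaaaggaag

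To see which kinds of myeloid cell were inside, the 1153 cells of both groups were clustered together by Leiden, which gave 15 clusters. A cluster was called X-like from marker lists only, where at least 3 markers of a list were met and no other list had more of its markers among the 10 leading genes. Of the 15 clusters, 10 met this rule and 5 did not, and those that met it for a class other than the myeloid ones are called by their markers only. Doublets were not called, and free RNA was not removed.

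**Figure D1:**
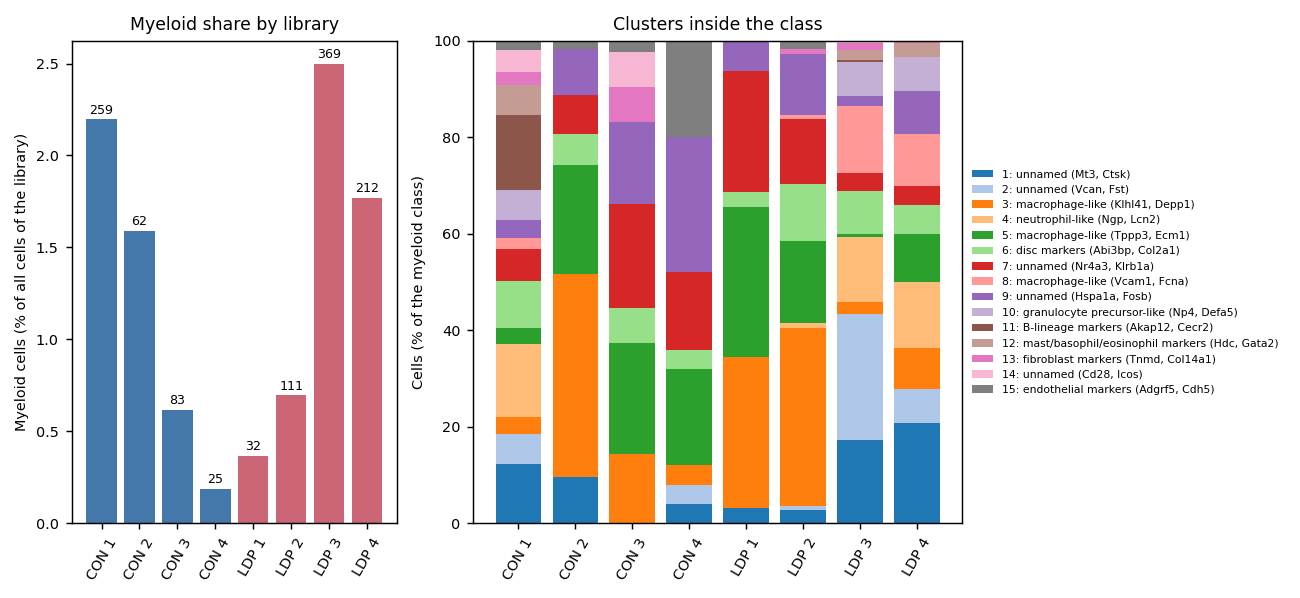
Left, myeloid cells as a percentage of all cells of each library, with their number above the bar (blue CON, red LDP). Right, the 15 clusters as percentages of the myeloid cells of each library, each named by its kind and its leading named genes. Neutrophil-like, granulocyte precursor-like and Vcan-led cells fill large parts of CON 1, LDP 3 and LDP 4, and few or none of the bars of the other libraries.

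Macrophage markers were the most widespread. In 5 clusters, with 537 cells (46.6% of the class), at least 9 of the 11 were met, and 3 of these clusters, with 306 cells, passed as macrophage-like. The first of them had 126 cells and was led by Klhl41, Flrt3, Clec4e, Ccl7 and Mmp12. Ccl7 is an attractant of monocytes and Mmp12 the macrophage elastase, and their levels were 1567 and 391 CPM in the cluster against 444 and 114 CPM in the other myeloid cells. A second, of 99 cells, was led by Tppp3, Ecm1 and Ltc4s. It had Lyz2 at 10916 CPM and the folate receptor Folr2 at 391 CPM, and its class II levels were low, with Cd74 at 229 CPM. The last macrophage-like cluster had 81 cells and was led by Vcam1, Fcna, Rarres1, Cfd, Cxcl10 and Rsad2. Spic, the factor of iron-recycling macrophages of spleen and marrow, had a UMI in 46.9% of its cells and averaged 240 CPM against 6.62 CPM in the other myeloid cells. C1qa reached 5375 CPM and Apoe 13161 CPM there, each the highest of the 15 clusters.

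Of the clusters with macrophage markers that stayed unnamed, one held 151 cells with 10 of the 11 markers. Ctsl, a lysosomal protease, averaged 7107 CPM there against 1704 CPM in the other myeloid cells, and Apoe 6599 against 1718 CPM. Because Ctsk and Atp6v0d2 of the osteoclast list were also among its 10 leading genes, in 5.30% and 3.97% of its cells, it was given no name. The other held 80 cells led by Hspa1a, Fosb, Nr4a2 and Gadd45b, which are heat shock and immediate early genes. It had 9 of 11 macrophage markers, and Nr4a1 of the monocyte list was among its leading genes.

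Cells with the highest class II levels formed a cluster of 89 cells led by Nr4a3, Klrb1a, Zc3h12c, Slpi, RT1-Ba and Havcr2. Cd74 was at 19438 CPM and RT1-Da at 12889 CPM, while C1qa was at 34 CPM. Such a pattern is known from dendritic cells. Of the 9 markers of the dendritic cell list only 4 are listed for both groups, and 0 were met. Flt3, Irf8 and Zbtb46 were at 15, 23 and 13 CPM, with means of 13.8, 33.6 and 6.97 CPM over the whole class. The cluster stayed unnamed, and so short a list cannot settle its kind. A cluster of 129 cells was led by Vcan, Fst, Thbs1, Mal and Ass1. Versican (Vcan), a monocyte marker, averaged 3326 CPM against 103 CPM in the other myeloid cells. With fewer than 3 of the 6 monocyte markers met and C1qa at 12 CPM, the Vcan-led cluster was not named either. That list of 11 markers, of which 6 are listed for both groups, was hard to meet. Its summed level was 9410 CPM outside the class, against 822 to 2860 CPM in the class by library. A marker had to be 4-fold the level outside the class, and Fn1 and Vcan of this list were common in disc cells. Missing the rule therefore does not speak against monocytes.

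Granulocytes were the sharpest group. The neutrophil-like cluster had 119 cells led by Ngp, Lcn2, Mmp8, Hp, Cd177 and Pglyrp1. It met 5 of 6 neutrophil markers and also 4 of 6 granulocyte precursor markers, which were Camp, Ngp, Cebpe and Srgn. S100a8 and S100a9 averaged 102182 and 119701 CPM, against 3446 and 4110 CPM in the other myeloid cells. No C1qa, Csf1r or Mrc1 was counted in it. The granulocyte precursor-like cluster had 57 cells led by Np4, Defa5, RatNP-3b, Prtn3 and Srgn. Np4, Defa5 and RatNP-3b are defensins of the first granules, at 60740, 36720 and 122500 CPM against 292, 203 and 965 CPM in the other myeloid cells. These 3 are closely related genes, and how reads were split between them is not given in the sources used here. Prtn3, proteinase 3, averaged 809 CPM there and 5 CPM in the neutrophil-like cluster, while Mmp8, of a later granule, averaged 11 and 3866 CPM. Srgn averaged 10164 CPM in the precursor-like and 828 CPM in the neutrophil-like cluster. Other genes of the precursor list were higher in the neutrophil-like cluster. Ngp, Camp and Cebpe averaged 521, 16673 and 332 CPM in the precursor-like and 21954, 24625 and 618 CPM in the neutrophil-like cells. The maturation stage of the 119 cells was not tested. The proliferation marker Mki67 averaged 390 CPM in the precursor-like and 58 CPM in the neutrophil-like cells. Neutrophil-like cells carried a median of 1632 UMIs, the fewest of the 15 clusters. A further 30 cells formed a cluster led by Hdc, which makes histamine, and Gata2, and it met 3 markers of the mast cell, basophil or eosinophil list. Its 10 leading genes also held Nrgn, Myl9, Pla2g2a and Gp9, each in 13.3% of its cells and all found in platelets, and the platelet chemokine Pf4 averaged 2612 CPM, so it is called here by Hdc and Gata2 and by no cell type.

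Part of the class carried markers of other cell types. Clusters led by disc, fibroblast, endothelial and B-lineage markers held 96, 20, 16 and 41 cells, 173 in all (15%). The cells with disc markers had Col2a1 at 10330 CPM together with 6 of 11 macrophage markers and the most UMIs per cell of the 15 clusters, a median of 6467. Among the B-lineage markers met in the cluster of 41 cells were Cd79b, Blnk, Rag1, Igll1, Ebf1 and Dntt, and Lyz2 was at 125 CPM. An unnamed cluster of 19 cells was led by the T-cell genes Cd28, Icos, Gimap7 and Lck, with Lyz2 at 0. Whether these cells are doublets, cells with free RNA or cells of another class was not tested.

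**Figure D2:**
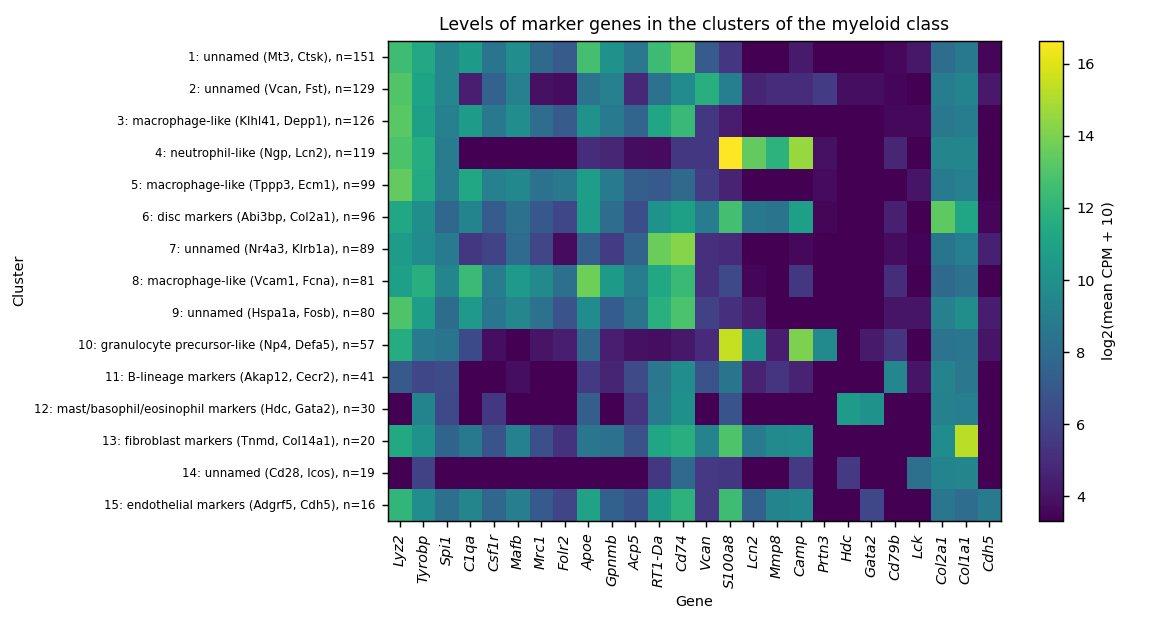
Mean level of marker genes in the 15 clusters, as log2(mean CPM + 10), with the number of cells of each cluster. Lyz2 and Tyrobp are high in most rows, C1qa to Folr2 mark the macrophage rows, and S100a8 and Camp are highest in the neutrophil-like and precursor-like rows and lower in the rows with disc, fibroblast and endothelial markers.

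The clusters were spread unevenly over the libraries. The division set CON 1, LDP 3 and LDP 4, from uninjured and injured discs, apart from the other 5 libraries. CON 1, LDP 3 and LDP 4 together held 840 of the 1153 cells. They held 118 of the 119 neutrophil-like cells, the remaining cell being from LDP 2. All 57 precursor-like cells and all 30 cells of the Hdc and Gata2 cluster came from these 3 libraries. So did 127 of the 129 Vcan-led cells, 80 of the 81 cells of the Vcam1 and Spic cluster, and 140 of the 151 cells of the Ctsl and Gpnmb cluster. The other 5 libraries held 90 of the 126 cells of the Ccl7 and Mmp12 cluster and 67 of the 99 cells of the Tppp3 and Folr2 cluster. B-lineage cells were from CON 1 except for 1 cell of LDP 3. The same 3 libraries held 4278 of the 4303 cells of the study's lymphoid class at this time. No cell barcode of the class occurred in more than 1 library. What these 3 libraries share beyond the values given was not tested.

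Single genes showed the same division when all cells of the class were averaged. S100a8 averaged 19180 CPM in CON 1, 14450 CPM in LDP 3 and 25450 CPM in LDP 4. In LDP 2 it averaged 232 CPM. In CON 2, CON 3, CON 4 and LDP 1 it had 0 UMIs, which allows up to 9.04, 7.66, 39.7 and 23.9 CPM by the floor of 3 UMIs. Camp, an antimicrobial peptide of neutrophil granules, was likewise at 0 in these 4 libraries, at 117 CPM in LDP 2 and between 4306 and 5739 CPM in the other 3. Cebpe, the factor of late granulocyte maturation, had 168, 129 and 78.1 CPM in CON 1, LDP 3 and LDP 4. Mpo, Elane and Ctsg, enzymes of the first granules, are listed for LDP only, where they were at 66.4, 104 and 63.0 CPM in LDP 3, at 126, 169 and 178 CPM in LDP 4, and at 0 in LDP 1 and LDP 2. Lyz2, Tyrobp and C1qa, in contrast, were high in all 8 libraries.

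**Figure D3:**
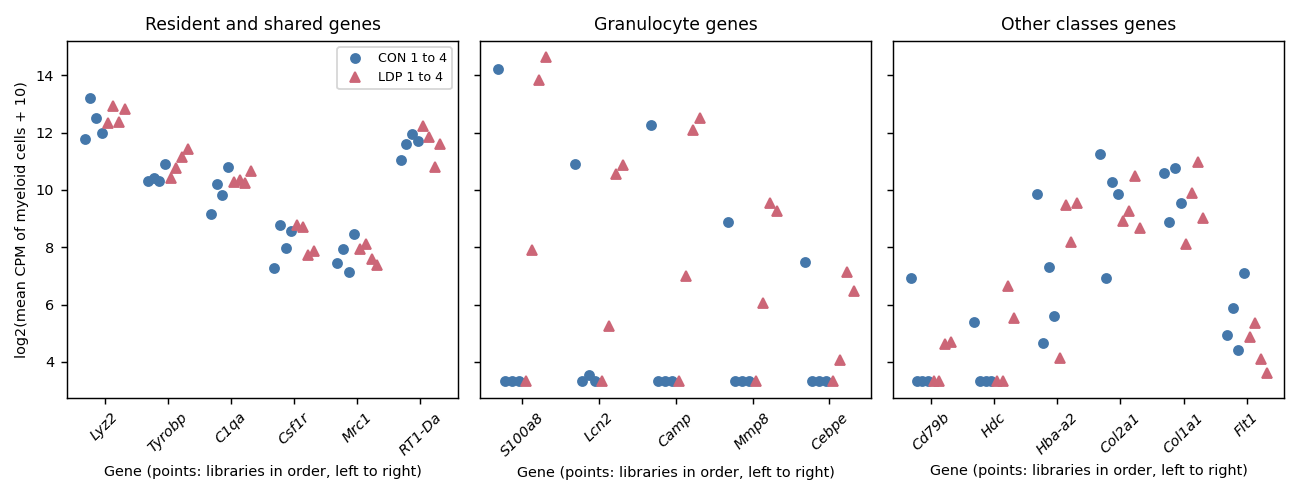
Mean level of single genes in the myeloid cells of each library as log2(mean CPM + 10), CON as circles and LDP as triangles, each from rat 1 to rat 4, left to right. The granulocyte genes of the middle panel lie at or near the bottom of the scale in 4 or 5 libraries and far above it in CON 1, LDP 3 and LDP 4, while Lyz2 and C1qa of the left panel lie high in all 8.

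Shares of the named kinds were then compared between injured and uninjured discs. Macrophage-like cells were 9.27, 64.5, 37.3 and 24.0% of the class in CON 1 to 4 and 62.5, 54.95, 16.8 and 29.2% in LDP 1 to 4. The means were 33.8 ± 23.5% and 40.9 ± 21.5% (SD, n = 4, exact permutation p = 0.714), and the groups overlapped. This share depended on the clustering, with means of 55.6 and 59.2% at Leiden resolution 0.5, 46.9 and 60.7% at resolution 2 and 69.8 and 71.1% with K-means. Different clusters hold this kind in different libraries, since the Vcam1 and Spic cluster made up 51 of the 62 macrophage-like cells of LDP 3 and none of those of CON 2, CON 3, CON 4 and LDP 1. Neutrophil-like cells were 15.1% in CON 1, 0 in the other CON libraries, 0 and 0.901% in LDP 1 and LDP 2, and 13.6 and 13.7% in LDP 3 and LDP 4. The exact interval for 0 of 25 cells in CON 4 reached 13.7%, so neutrophils at the share of LDP 4 would not be distinguishable from 0 there. Their means were 3.76 ± 7.53% and 7.03 ± 7.61% (SD, n = 4, exact permutation p = 0.83), and 5.60 and 10.7% at resolution 0.5, 1.16 and 5.31% at resolution 2 and 3.48 and 6.22% with K-means. Precursor-like cells averaged 1.54 ± 3.09% in CON and 3.53 ± 4.08% in LDP (SD, n = 4, exact permutation p = 0.429). Over the 8 kinds tested the smallest exact permutation p was 0.0571, for cells led by endothelial markers, which were 20% of the class in CON 4 (5 of 25 cells) and at most 2.41% elsewhere, and its Benjamini-Hochberg adjusted value was 0.457. The smallest possible exact permutation p is 0.0286, so a single kind of the 8 could not pass after adjustment. With the libraries paired by rat the smallest p was 0.250 (exact sign flips, where 4 pairs cannot go below 0.125).

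Gene by gene, LDP was compared with CON in the myeloid cells with the rat as a block. No gene of 4884 tested (0.0%) passed an adjusted p of 0.05 in limma, and 162 (3.32%) had an unadjusted p under 0.05, of which 44 were higher (0.901%) and 118 lower (2.42%) in LDP. The smallest adjusted p was 0.962. No gene passed in edgeR's quasi-likelihood test with the same block either, where 123 genes had an unadjusted p under 0.05, and 7 passed in DESeq2. Those 7, named after their values were seen, were Ier3, S100a8, S100a9 and RatNP-3b, higher in LDP, and Cd28, Cyr61 and Egr1, lower. The DESeq2 log2 differences of S100a8, S100a9 and RatNP-3b were 13.93, 14.09 and 13.56. In limma those of S100a8 and S100a9 were 3.88 and 4.12. Both genes were at 0 in CON 2, CON 3, CON 4 and LDP 1, and both were higher in CON 1 than in LDP 3, so these sizes rest on libraries at 0. Cd28 led the unnamed cluster with T-cell genes, which had 12 cells in CON 1, 6 in CON 3 and 1 in LDP 3. Without rat 1, whose CON library is the uninjured library with granulocytes, 8 genes passed in limma, all higher in LDP: Camp, Cd177, G0s2, LOC100910270, Mmp8, Ngp, S100a8 and S100a9. This count rests on LDP 2, LDP 3 and LDP 4 against CON libraries where S100a8, S100a9, Camp, Ngp and Mmp8 were at 0. With CON 1, LDP 3 and LDP 4 all left out and no block, 0 genes passed and 126 had an unadjusted p under 0.05. In the macrophage-like clusters alone 0 genes passed and 198 had an unadjusted p under 0.05. That fit rests on 24, 40, 31 and 6 cells in CON 1 to 4 and 20, 61, 62 and 62 in LDP 1 to 4. Its values for CON 4 therefore come from 6 cells. In the bulk level of a class, fewer cells of a kind and less RNA per cell cannot be told apart.

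None of the genes named next passed the threshold. They are the 8 in each direction with the smallest p among those with the same sign in 4 of 4 rats, a pattern that 197 genes (4.03%) had upward and 425 (8.7%) downward. The CON and LDP libraries did not overlap for 3 of the 8 higher and 6 of the 8 lower genes, and over all genes tested for 0.614% (higher) and 2.15% (lower).

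Gdf15, a stress-induced cytokine, averaged 59.9, 45.9, 64.1 and 100 CPM in CON 1 to 4 and 110, 124, 201 and 221 CPM in LDP 1 to 4. Every LDP library was above every CON library, with a log2 difference of 1.15 ± 0.262 (SE, limma, adjusted p = 0.962). Atp6v1e1, a subunit of the proton pump that acidifies lysosomes, had 410, 392, 386 and 244 CPM in CON and 648, 705, 780 and 626 CPM in LDP, again without overlap (log2 difference 0.95). Ier3, an early response gene, had 551, 280, 773 and 1793 CPM in CON and 1014, 817, 1779 and 2613 CPM in LDP, and the groups overlapped through CON 4 (log2 difference 1.03). Within the macrophage-like clusters its log2 difference was 1.49 (limma, adjusted p = 0.397), the smallest p of that fit, and without CON 1, LDP 3 and LDP 4 it was 0.31. Without these 3 libraries the differences of Gdf15 and Otulin, 1.15 and 0.83 over all libraries, were 0.72 and 0.49, and in the macrophage-like clusters alone they were 2.31 and 0.79. Ccl2, the main attractant of blood monocytes, had 755, 510, 1380 and 259 CPM in CON and 1380, 1274, 1704 and 2305 CPM in LDP. The level of Ccl2 was highest in the Hdc and Gata2 cluster and the Vcan-led cluster, at 5454 and 4646 CPM, and in the macrophage-like clusters, which leave out both, its log2 difference was 2.10 (limma, adjusted p = 0.964). It was 1.39 over all cells of the class and 0.82 without rat 4, whose CON library was the lowest. Otulin and Otulinl, related genes for which a split of shared reads cannot be checked here, had log2 differences of 0.83 and 1.16. In the Ctsl and Gpnmb cluster they averaged 753.5 and 257 CPM, against 213 and 63.0 CPM in the other myeloid cells. That cluster made up 12.4, 17.3 and 20.8% of the class in CON 1, LDP 3 and LDP 4, and at most 9.68% elsewhere. Klrb1a, a lectin-like receptor that also led the class II-high cluster, and Fbxl5, an iron-sensing ubiquitin ligase subunit, had 1.81 and 1.54. Both were at 0 in CON 4, and with a pseudocount of 1 their differences were 2.79 and 2.46. Without rat 4 that of Fbxl5 was 0.98.

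Egr1, an immediate early transcription factor, had 122, 260, 114 and 374 CPM in CON 1 to 4 and 10.3, 66.4, 72.9 and 37.8 CPM in LDP 1 to 4. All LDP libraries were below all CON libraries, with a log2 difference of -2.03 ± 0.416 (SE, limma, adjusted p = 0.962). Cyr61, a matricellular protein, had 48.8, 86.9, 43.3 and 119 CPM in CON and 3.66, 16.1, 13.4 and 9.84 CPM in LDP, also apart (log2 difference -1.97). In CON 4, the highest for both genes, 1 UMI is worth 13.2 CPM, so that these levels rest on few molecules. The cluster with endothelial markers had the highest Egr1 of the 15, at 611 CPM, and was 20% of CON 4. The 8 endothelial markers summed to 109, 142, 101 and 548 CPM in CON and 19.1, 89.9, 112 and 22.0 CPM in LDP, and outside the clusters led by markers of other classes the log2 difference of Egr1 was -1.85, and in the macrophage-like clusters -1.72. Cyr61 was not among the genes tested in either of these fits. Irf4, a transcription factor of macrophage and lymphocyte differentiation, had 62.8, 77.7, 87.8 and 78.6 CPM in CON and 40.1, 30.4, 12.1 and 14.05 CPM in LDP (log2 difference -1.42, and -0.87 in the macrophage-like clusters). Marcks, a substrate of protein kinase C in the cell cortex, had 200, 234, 185 and 258 CPM in CON and 129, 123, 57.9 and 116 CPM in LDP (log2 difference -1.02). Ccdc186, Slfn5, AABR07021221.1 and Wdr53 had log2 differences of -1.13, -1.54, -1.18 and -1.53, with overlap of the groups for Slfn5 and AABR07021221.1. Wdr53, at 0 in LDP 1, had -2.70 with a pseudocount of 1.

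**Figure D4:**
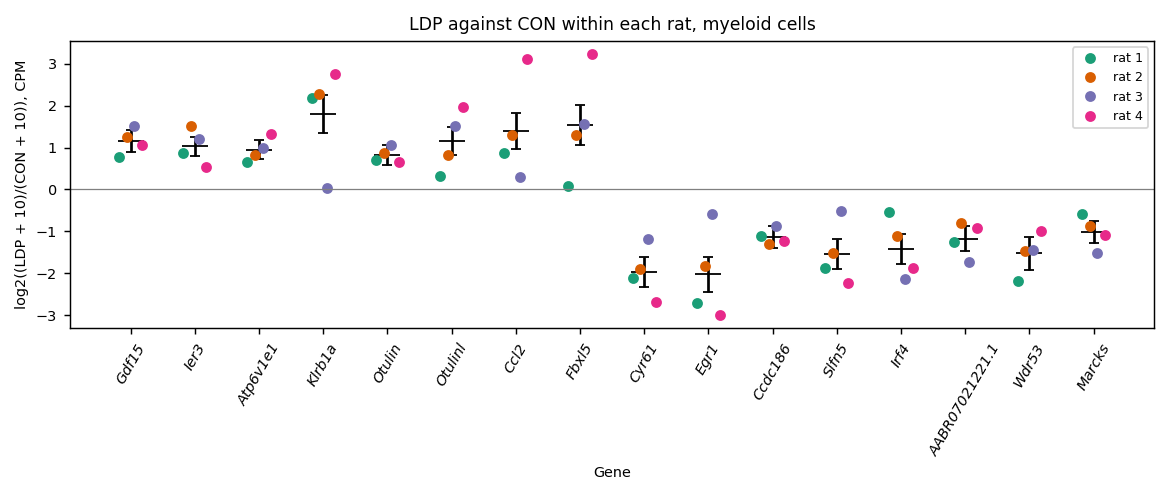
Difference of LDP from CON in each rat for the 16 named genes, as log2 of the ratio of CPM + 10, with the limma estimate and its SE as a black bar. The 4 points of a gene lie on the same side of 0 because the genes were chosen so, and none passed the adjusted threshold.

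Functional groups were described by counts beside those of all tested genes, of which 42.1% had a log2 difference above 0 and whose median was -0.08. Of the pan-myeloid and macrophage markers, 8 of 10 each were above 0, with medians of 0.44 and 0.38. Disc, fibroblast and endothelial markers had 2 of 8, 0 of 4 and 0 of 3 above 0, with medians of -0.29, -0.60 and -1.10. Cells with at least 4 of 8 pan-myeloid markers were 57.1, 90.3, 87.95 and 72.0% of the class in CON 1 to 4. In LDP 1 to 4 they were 90.6, 91.9, 85.6 and 87.7%. The classes of CON and LDP also came from separate clusterings of the study. Whether the groups below moved with these markers or these shares was not tested. For lysosome genes and cathepsins, 10 of 12 tested members were above 0 and the median difference was 0.44. The highest were Gpnmb (0.75) and the asparaginyl protease Lgmn (0.75), which had 351, 414, 310 and 361 CPM in CON and 657, 533, 668 and 579 CPM in LDP without overlap. Cd63 and Ctsl were the most abundant of the 12, at 2380 and 2001 CPM. For complement 6 of 7 were above 0 with a median of 0.54, and C1qa, C1qb and C1qc had 0.38, 0.55 and 0.54. For lipid handling 8 of 11 were above 0 with a median of 0.34. Apoe differed widely between libraries, with 2202, 287, 237 and 3675 CPM in CON and 761, 1499.7, 3354 and 2780 CPM in LDP. The lipid droplet coat Plin2 had 867, 1102, 1032 and 189.9 CPM in CON and 1061, 1239, 2988 and 1432 CPM in LDP, higher in LDP in 4 of 4 rats.

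For iron and heme genes 4 of 6 were above 0, with a median of 0.28. Ferritin heavy chain Fth1, which stores iron, was at 14310 to 29860 CPM in CON and 21770 to 31750 CPM in LDP, and heme oxygenase Hmox1 was at 2345 to 5332 and 2438 to 5027 CPM. Class II genes had a median of -0.06, with 1 of 5 above 0. Their summed level was lowest in CON 1 and LDP 3, at 8480 and 8655 CPM, and highest in CON 3, at 20470 CPM. For chemokines 5 of 9 were above 0 with a median of 0.08, and for cytokines and their receptors 6 of 8 with a median of 0.08. The inflammatory cytokine Il1b was at 62.0 to 96.0 CPM in CON and 8.09 to 200.5 CPM in LDP. The pattern of interferon response genes was mixed, with 4 of 7 above 0, and Isg15 and Bst2 had differences of 0.82 and 0.53.

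For immediate early genes 1 of 10 was above 0, with a median of -0.47. Beside Egr1, Zfp36 was lower in LDP in 4 of 4 rats (log2 difference -0.49). CON 4 was the highest library for Fos, Fosb, Jun and Junb, with Jun at 2096 CPM there and between 469 and 777 CPM in the other 7. The cluster led by Hspa1a, Fosb and Nr4a2 made up 3.86, 9.68, 16.9 and 28.0% of the class in CON 1 to 4. In LDP 1 to 4 it made up 6.25, 12.6, 2.17 and 8.96%. For cell cycle genes 0 of 4 tested were above 0 with a median of -0.57. For matrix proteases and inhibitors 4 of 6 were above 0 with a median of 0.45. Among them Mmp9 was at 69.2, 129 and 110 CPM in CON 1, LDP 3 and LDP 4 and at 7.02 CPM or less elsewhere, and Timp2 was the most abundant, at 343 to 847 CPM in CON and 472 to 922 CPM in LDP. Of the markers of macrophage polarisation Tlr2, Mrc1 and Msr1 were tested, with differences of 0.56, -0.00 and -0.19. Tlr4, Cd80 and Arg1 were under the minimum of 20 CPM. Cd86, a co-stimulatory ligand for T cells, is listed for LDP only, at 23.6, 40.1, 57.5 and 49.0 CPM in LDP 1 to 4, and could not be compared. Of the neurotrophin and pain genes only Ptgs2 was tested (0.28), at 0 in CON 4, LDP 1 and LDP 2. No member of these lists passed the adjusted threshold.

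Detection of 52 myeloid markers per cell was compared at an equal depth of 1000 UMIs, which left out 12 cells. None (0.0%) passed after adjustment, and 1 had an unadjusted p under 0.05. The smallest possible exact permutation p is 0.0286, so a single gene of the 52 could not pass after adjustment. Fcer1g, an adaptor of Fc receptors, was detected in 42.4, 37.7, 44.6 and 40% of CON 1 to 4 myeloid cells and in 50, 64.8, 64.5 and 64.2% of those of LDP 1 to 4. The groups did not overlap, with means of 41.2 ± 2.97% and 60.9 ± 7.24% (SD, n = 4, exact permutation p = 0.0286, the smallest possible, Benjamini-Hochberg adjusted 0.891). With all UMIs counted the means were 75.4 and 91.1%. The mean level of Fcer1g overlapped between the groups, at 799, 729, 688 and 934 CPM in CON and 682, 986, 1381 and 1350.1 CPM in LDP, higher in LDP in 3 of 4 rats (log2 difference 0.43, limma, adjusted p = 0.962). Disc cells thinned the same way showed Fcer1g in 0 to 0.502% of cells. Spi1 was detected in 23.5 ± 8.07% of CON and 35.3 ± 6.83% of LDP cells (SD, n = 4, exact permutation p = 0.0571). Lyz2 was detected in 79.4 ± 13.6 and 83.0 ± 2.92%, with CON 1 the lowest library at 60.3%. CON 1 also had the lowest share of cells with several pan-myeloid markers, given above. Detection was not adjusted for that share. Of the 4 class markers, Cd14 was the most often detected in disc cells, with a UMI in up to 6.00% of them. Its lowest myeloid detection was 16.3%, in CON 1. Some of the 52 markers were not above disc cells. Fn1 was detected in 40.6 to 68.0% of myeloid cells by library and in 92.0 to 98.3% of disc cells. Vcan was detected in 0 to 25.3% and 20.35 to 49.0%.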

How the data were processed

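Discs were dissociated and libraries made with the 10x 3′ v3.1 kit. Per the labels' processing notes, the authors used Partek and the rn6 build, and the methods state that they kept cells by genes, UMIs and mitochondrial share, clustered each group apart by K-means and named classes by markers. The aligner and any removal of doublets or free RNA are not given in the sources used here. The deposited values per cell are log2 of counts per 1000000 plus 1. The deposited tables also give an expected count total, a count of expressed genes and a percent of mitochondrial and of ribosomal reads per cell. Genes not listed for a group have no value there.

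Log2 values were turned back to CPM and, with the deposited totals, to UMIs, which were whole within 0.02 for over 99.3% of values. Levels are means over the myeloid cells of a library, and a fold is taken on CPM + 10. The methods state that each rat gave a CON and an LDP pool and compare them within rats, and libraries with the same number were taken as 1 rat. Deviations from the group means over 4884 genes did not follow these numbers: same-number correlations were -0.49, 0.217, -0.26 and 0.005, and CON 1 was nearest to LDP 3 (0.583) and LDP 4 (0.412). Genes at 20 CPM or more were tested with limma 3.58.1 (R 4.3.3) on log2(CPM + 10) with the rat as a block and Benjamini-Hochberg adjustment; edgeR 4.0.16 and DESeq2 1.42.0 on summed UMIs were alternatives. Shares were compared by two-sided exact permutation tests. Cells were clustered in scanpy 1.11.5 (2000 variable genes, 20 components, resolution 1). A marker was met in a cluster if at least 20% of its cells had a UMI and its level was 4-fold that outside the class. For disc, fibroblast, endothelial, pericyte and Schwann markers it had to be 4-fold that of other myeloid cells instead. B-lineage, T-cell and erythroid markers were held to the level outside the class. This rule was set after the clusters were seen. The named genes are the 8 with the smallest p in each direction among those with 1 sign in all 4 rats, and the 4 class markers. The scripts were tested on simulated data. The class, lists and rules were chosen with earlier results of these data known. Median UMIs per myeloid cell were 2479 to 5328 in CON and 3204 to 4575 in LDP, and 1 UMI was worth 0.620 to 13.2 CPM of a library's mean. Libraries of different rats are the replicates, and intervals and floors cover counting error only. A few genes that lead or mark clusters are not reported here.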

Additional observations from a re-analysis of the deposited data

Results flagged for a closer look

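In groups of 4 libraries, 60 sets of values were screened for a library far from the rest by Dixon's criterion, and 12 met it. Chance gives about 1 in 20 sets for continuous values. That rate does not apply to 5 of the 12, where the other 3 libraries were at 0 and any value above 0 meets the criterion. No explanation was tested for any of them. CON 1 stood apart from the other CON libraries, all at 0, in its shares of neutrophil-like cells (15.1% of the class), B-lineage cells (15.4%), granulocyte precursor-like cells (6.18%) and cells of the Hdc and Gata2 cluster (6.18%). Cells with endothelial markers were 20% in CON 4 and 1.61 to 2.41% in the other CON libraries, and 1.80% in LDP 2 and 0 to 0.271% in the other LDP libraries. The single B-lineage cell of LDP 3 made 0.271% of its class, with 0 in the other LDP libraries.

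Among the named genes, Atp6v1e1 was at 244 CPM in CON 4 and 386 to 410 CPM in the other CON libraries. Ccdc186 was highest in both libraries of rat 2, with 210 CPM in CON 2 against 87.6 to 103 CPM in the other controls and 78.7 CPM in LDP 2 against 36.4 to 43.6 CPM in the other injured libraries. Slfn5 was at 53.6 CPM in LDP 3 and 8.19 to 12.96 CPM in the rest of LDP. Wdr53 was at 0 in LDP 1, where 3 UMIs would be 23.9 CPM, and 10.1 to 10.5 CPM in the rest of LDP.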

How the results depend on the processing

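The difference in myeloid share (0.186 percentage points, LDP minus CON) was 0.386 with lymphoid cells left out of the denominator. For cells of any class with pan-myeloid markers it was 0.331. The difference in myeloid share ran from -0.380 to 0.858 when 1 rat was left out and was -0.266 without CON 1, LDP 3 and LDP 4, an alternative chosen after seeing the data. Paired by rat it had p = 0.875 (exact sign flips). The count of genes past the threshold was 7 with DESeq2 and the rat as a block, ran from 0 to 8 when 1 rat was left out, and was 0 in the other alternatives, with and without the replicate block. Under DESeq2, Ier3 (1.20), Cyr61 (-2.33) and Egr1 (-2.19) of the 16 named genes passed, beside Cd28 (-4.08), S100a8 (13.93), S100a9 (14.09) and RatNP-3b (13.56). The 16 named genes kept their direction in every setting that gave them a value. They were chosen for the same sign in 4 of 4 rats. Leaving out 1 rat or the block, or a pseudocount of 1, therefore could not reverse them. Without CON 1, LDP 3 and LDP 4 Ier3 was at 0.31, Gdf15 at 0.72 and Otulin at 0.49, and in macrophage-like clusters Gdf15 was at 2.31, Ccl2 at 2.10, Irf4 at -0.87 and AABR07021221.1 at -0.75. With a pseudocount of 1 Klrb1a was at 2.79, Fbxl5 at 2.46 and Wdr53 at -2.70, and without rat 4 Ccl2 was at 0.82 and Fbxl5 at 0.98. No other value of these 16 genes moved by over 1.5 times. Mrc1, near 0, was above 0 with a pseudocount of 1 (0.0016), summed UMIs (0.13), edgeR (0.26), DESeq2 (0.27), in macrophage-like clusters (0.55) and without the 3 libraries (0.16), and ran from -0.16 to 0.36 when 1 rat was left out. Lyz2 was -0.38 in macrophage-like clusters. Between kinds, the difference for cells with disc markers was -1.16 points at resolution 0.5, and that for cells with mast cell, basophil or eosinophil markers 0.475 at resolutions 0.5 and 2 and 0.378 with K-means. When 1 rat was left out the differences ran from -5.15 to 0.0903 (B lineage), -0.894 to 3.04 (disc), -8.02 to -1.29 (endothelial), 0.290 to 4.71 (granulocyte precursor), -8.29 to 16.3 (macrophage), -1.34 to 1.67 (mast cell, basophil or eosinophil), -0.202 to 9.38 (neutrophil) and -2.70 to -0.443 points (fibroblast). The count of markers with a changed detection was then 0, which was fixed in advance. With 1 rat left out no exact permutation p can fall under 0.05. The shares of macrophage-like and neutrophil-like cells themselves depended on the clustering. No precursor-like or fibroblast cluster was named at resolution 0.5. The causes were not tested. CON 4 and LDP 1, with 25 and 32 cells, of which 6 and 20 were macrophage-like, limit what can be detected.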
